A study of Mus musculus with 10 samples.

Results

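The 47 genes described here are the transcription factors TFEB, TFE3 and MITF, 19 genes of the autophagy machinery, 13 lysosomal enzymes and 12 other lysosomal genes, out of 55359 genes in the deposited table. They were chosen by gene symbol from a list of names, and all 47 were found by identifier. Their messenger RNA was compared in whole mouse kidney between 5 libraries from male mice given 30 min of kidney ischaemia and then 24 h of reperfusion (ischaemia-reperfusion injury, IRI) and 5 libraries from male mice given sham surgery. No genetic change or drug is named for either group. The strain, age and diet of the mice, and the interval between sham surgery and sampling, are not given in the sources used here. No label states that each library came from a separate mouse, so every p-value measures the spread between these libraries.

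Autophagy encloses worn or surplus cell content in a double membrane and delivers it to lysosomes, where acid hydrolases break it down. TFEB, TFE3 and MITF, the MiT/TFE family, bind promoters of autophagy and lysosome genes and raise their transcription, and the kinase complex mTORC1 on the lysosome surface keeps them out of the nucleus by phosphorylation when nutrients are plentiful. Proximal tubule cells of the kidney take up filtered protein and digest it in lysosomes, which makes them rich in these enzymes.

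Library totals ran from 13147899 to 17307039 counts in IRI and from 13199234 to 18603272 counts in sham, and mitochondrial ribosomal RNA took 2.31% of the counts of IRI replicate 1 and 0.214% to 0.45% in the other 9 libraries. All 16 markers of tubule segments and glomeruli checked were above 0 in every library. Injured tubule markers (Havcr1, Lcn2, Krt20, Sox9, Vcam1) summed to 1736 to 2797 FPKM in IRI libraries and 1.93 to 4.11 FPKM in sham libraries. Summed proximal tubule markers were at 172 to 1016 FPKM in IRI libraries, with replicate 1 the highest, and at 2300 to 2981 FPKM in sham libraries, and all 9 fell. Macrophage markers summed to 66.1 to 112 FPKM in IRI and 38.1 to 57.9 FPKM in sham, with 3 higher (Cd14, Itgam, Chil3) and 1 lower of 8 that passed the filter on low values, 1 FPKM in at least 5 libraries, or 5 higher and 1 lower of 9 without IRI replicate 1. A fit of all 12 macrophage markers without the filter gave 3 higher, 3 lower (Csf1r, Cx3cr1, Ly6c2) and 6 not called. Neutrophil markers summed to 24.2 to 110.4 FPKM in IRI and 1.08 to 3.39 FPKM in sham, and all 9 were higher in the fit without the filter, of which 5 passed the filter. Itgam, Chil3 and most of these 5 neutrophil markers passed it through the IRI libraries alone. Of these markers, Ly6g was at 0 in all 5 sham libraries, and no marker was at 0 in all 10. In whole tissue, fewer cells of a type and less RNA per cell cannot be told apart.

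The 47 genes split in IRI, with 15 higher, 20 lower and 12 not passing the test. FPKM, fragments per kilobase of exon per unit of counted reads, is the authors' level per gene length, and it is scaled by the library total. Fold changes come from edgeR's quasi-likelihood test on the deposited counts with TMM factors, which rescale libraries on the bulk of genes, and a gene was called at a Benjamini-Hochberg adjusted p under 0.05 over 13324 genes tested. All 47 passed the filter on low values, and the lowest count of any of them in any library was 72. Among all genes tested, 34.5% were called higher and 32.4% lower, or 66.9% in either direction, and the median log2 fold change was 0.05. The 15 and 20 calls amount to 31.9% and 42.6% of the 47, and the median of their log2 fold changes was -0.19.

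With library totals in place of TMM factors, the median log2 fold change of all genes stood 0.25 higher, the calls were 17 higher and 15 lower among the 47, and 47.4% of all genes tested were called higher and 23.6% lower. Under that scaling Mitf, Atg5, Gabarapl2, Mcoln1 and Atp6v0d1 were no longer called lower, and Map1lc3b and Grn were called higher. None of the 35 genes called under TMM factors changed direction. The remaining 30 calls were made under both scalings in the same direction. With TMM factors, changes of at least 2-fold were found for 4 genes that rose, Ctsc, Ctsd, Ctss and Gla. The 5 that fell by at least 2-fold were Glb1, Gabarapl1, Neu1, Ctsh and Ctsa. All but Gabarapl1 of the genes so listed encode lysosomal enzymes. Over all genes tested, 11.9% rose and 15% fell by at least 2-fold with TMM factors. With library totals Ctsh and Ctsa fell by less than 2-fold, at -0.94 and -0.81 on the log2 scale. Under that scaling Tfe3, Optn and Npc1 rose by at least 2-fold, at 1.08, 1.15 and 1.01. FPKM of the groups did not overlap for 25 of the 47 genes, or 53.2%, against 55.2% of all genes tested.

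**Figure D1:**
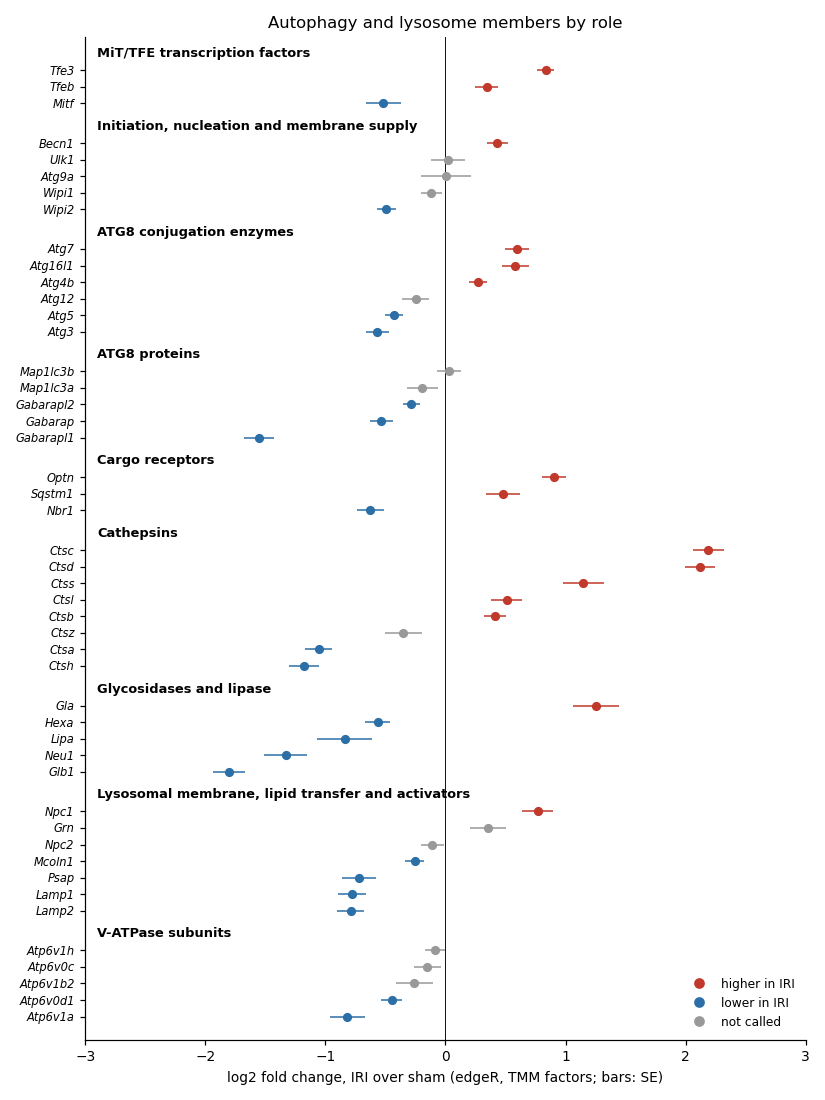
Log2 fold change of IRI over sham (horizontal axis, edgeR with TMM factors, bars 1 SE) for the 47 genes, grouped by role. Red points are higher, blue points lower and grey points not called. Ctsc at 2.19 and Ctsd at 2.12 lie furthest to the right, and Glb1 at -1.80 and Gabarapl1 at -1.55 furthest to the left.

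Tfe3 and Tfeb rose in IRI, and Mitf fell with TMM factors. All 3 are basic helix-loop-helix leucine zipper factors that bind DNA as dimers. Tfe3 (chrX:7628799-7641441, GRCm39, as are all gene coordinates here) had 5.92, 6.61, 5.68, 6.44 and 6.2 FPKM in IRI replicates 1 to 5, against 2.92, 2.93, 3.03, 2.76 and 2.9 FPKM in sham replicates 1 to 5. Every IRI library lay above every sham library, and the log2 fold change was 0.83 ± 0.07 (SE, adjusted p = 1.31e-06). Tfeb (chr17:48047955-48103344) had 4.88, 6.25, 5.37, 6.04 and 5.57 FPKM in IRI replicates 1 to 5, against 4.05, 3.54, 3.21, 3.76 and 4.02 FPKM in sham replicates 1 to 5. The groups did not overlap, and the log2 fold change of Tfeb was 0.34 ± 0.09 (SE, adjusted p = 0.00642). Mitf (chr6:97784013-97998310) had 1.86, 2.82, 2.08, 3.29 and 3.37 FPKM in IRI replicates 1 to 5, against 3.07, 3.06, 3.02, 3.58 and 3.27 FPKM in sham replicates 1 to 5. IRI replicates 1, 2 and 3 were below every sham library while IRI replicates 4 and 5 lay within the sham range, and the log2 fold change was -0.52 ± 0.15 (SE, adjusted p = 0.00818). With library totals the log2 fold change of Mitf was -0.25, with adjusted p = 0.184, and it was not called.

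The balance of the 3 factors within a library does not depend on how libraries are scaled. In sham kidneys they stood close together, at 2.76 to 4.05 FPKM, and in IRI kidneys Mitf was the lowest of all 47 genes in every library. The log2 ratio of Tfeb to Tfe3 was -0.14 ± 0.08 in IRI and 0.34 ± 0.17 in sham, a difference of -0.47 (adjusted exact permutation p = 0.0141). The log2 ratio of Mitf to Tfe3 was -1.21 ± 0.31 in IRI and 0.13 ± 0.14 in sham, a difference of -1.34 (adjusted exact permutation p = 0.0141). Both ratios used FPKM with 0.1 added, were adjusted over 16 pairs of related genes, and reached the raw p of 0.00794, the smallest that the 252 assignments of 5 libraries out of 10 allow. Tfec, the remaining member of the family, also fell, at 1.45 FPKM in IRI against 4.98 FPKM in sham and a log2 fold change of -2.01 ± 0.31 (SE, adjusted p = 1.03e-04).

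MiT/TFE factors bind the E-box CACGTG, and most tightly when it is flanked as GTCACGTG. RefSeq promoter windows of build GRCm38.p6, from 250 bases before a gene's start to 50 after it, were given for 38 of the 47 genes. CACGTG, which reads the same on both strands, was found in 12 of these 38, or 31.6%, against 8.09% of 27025 genes with a window and 11.9% of the 9603 tested genes with a window. GTCACGTG or its reverse complement CACGTGAC, each of which contains CACGTG, was found in 9 of the 38, or 23.7%, against 2.55% and 4.88%. Among 62 lysosomal genes outside the 47 that had a window, 15, or 24.2%, held CACGTG. The longer motif was found in 11 of these 62, or 17.7%. The 12 genes with CACGTG were 4 of 11 that rose (Atg7, Ctsd, Ctsl, Gla), 8 of 19 that fell (Atg3, Atg5, Atp6v0d1, Atp6v1a, Ctsa, Glb1, Lamp1, Mcoln1) and 0 of 8 that were not called. A match of letters is a description of the window and not a measured binding site. The sequences below are the stretches upstream of the start around these letters in genes that rose and in genes that fell, read from 5′ to 3′ on the gene's strand, with CACGTG in capitals.

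Ctsd, higher, chr7:142387890-142387955, minus strand: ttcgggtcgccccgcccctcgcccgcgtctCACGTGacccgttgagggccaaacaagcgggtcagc
Gla, higher, chrX:134601164-134601255, minus strand: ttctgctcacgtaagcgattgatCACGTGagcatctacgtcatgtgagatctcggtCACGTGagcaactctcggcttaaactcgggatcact
Glb1, lower, chr9:114401000-114401065, plus strand: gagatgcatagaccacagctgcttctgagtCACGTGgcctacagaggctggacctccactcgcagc
Lamp1, lower, chr8:13159070-13159160, plus strand: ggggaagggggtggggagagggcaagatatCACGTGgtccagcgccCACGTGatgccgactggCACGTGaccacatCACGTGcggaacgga
Mcoln1, lower with TMM factors, chr8:3500418-3500509, plus strand: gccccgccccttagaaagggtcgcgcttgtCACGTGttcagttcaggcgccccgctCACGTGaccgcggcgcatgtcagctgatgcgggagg

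Ctsd carried the motif 98 bases before its start, with a further copy 245 bases before it. Glb1, which fell, carried 1 copy beginning 48 bases before its start. Lamp1 carried 4 copies, and Gla and Mcoln1 carried 2 each, and of these 3 genes only Gla rose. The same letters thus stood in front of genes called in opposite directions.

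A list of 22 genes held those that control TFEB and mTORC1, and also Tfec. Of the 21 tested, 6 rose and 9 fell, Tfec among these 9, or 7 and 6 with library totals. These are 28.6% and 42.9% with TMM factors, against 34.5% and 32.4% of all genes tested. With library totals they are 33.3% and 28.6%, against 47.4% and 23.6% of all genes tested. Mtor, the kinase itself, fell, at 10.8 ± 2.19 FPKM in IRI and 24.9 ± 1.99 FPKM in sham and a log2 fold change of -1.45 ± 0.14 (SE, adjusted p = 3.83e-06). Lamtor5, a subunit of the Ragulator complex that anchors mTORC1 to the lysosome, had a log2 fold change of -1.19 ± 0.12 (SE, adjusted p = 4.02e-06). Rragc, one of the Rag GTPases that bind TFEB, rose by 0.55 on the log2 scale, and Tsc1 and Rptor, a brake on mTORC1 and a subunit of it, rose by 0.45 and 0.44. Rragd, the closest relative of Rragc, was not called at -0.05 ± 0.12 (SE, adjusted p = 0.706), and neither was Slc38a9, an amino acid sensor, at -0.02 ± 0.12 (SE, adjusted p = 0.877).

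Among the genes that start an autophagosome, Becn1 rose, Wipi2 fell and Ulk1, Atg9a and Wipi1 were not called. Becn1 (chr11:101176778-101193112) encodes Beclin 1, a subunit of the lipid kinase complex that marks the forming membrane, and had 20.8, 23.7, 21.8, 27.6 and 26.9 FPKM in IRI replicates 1 to 5, against 14.4, 15.7, 16.7, 14.5 and 13.9 FPKM in sham replicates 1 to 5. The groups were apart, and the log2 fold change was 0.43 ± 0.09 (SE, adjusted p = 9.65e-04). Wipi2 (chr5:142613453-142656343), which reads that lipid mark and recruits the conjugation machinery, had 11.1, 10.8, 9.9, 10.9 and 11.6 FPKM in IRI replicates 1 to 5, against 13.3, 12.5, 12.5, 13.2 and 12.7 FPKM in sham replicates 1 to 5. Every IRI library was below every sham library, and the log2 fold change was -0.49 ± 0.08 (SE, adjusted p = 1.31e-04). Its paralog Wipi1 averaged 8.37 ± 0.497 FPKM in IRI and 7.64 ± 0.678 FPKM in sham, with a log2 fold change of -0.12 ± 0.09 (SE, adjusted p = 0.266) that changed sign with library totals. Within libraries the log2 ratio of Wipi1 to Wipi2 was -0.37 ± 0.10 in IRI and -0.75 ± 0.14 in sham, a difference of 0.37 (adjusted exact permutation p = 0.0231). Ulk1, the kinase that receives the starvation signal, averaged 11.9 ± 2.33 FPKM in IRI and 9.92 ± 0.702 FPKM in sham, and its log2 fold change of 0.02 ± 0.14 (SE, adjusted p = 0.904) did not pass. Atg9a, a lipid scramblase on vesicles that feed the membrane, averaged 5.79 ± 1.08 FPKM in IRI and 4.88 ± 1.39 FPKM in sham, with a log2 fold change of 0.0032 ± 0.21 (SE, adjusted p = 0.99). The opposite-strand gene Ankzf1 overlaps Atg9a and held counts equal to 159% of those of Atg9a, and without strand their reads cannot be told apart.

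Other genes of these steps were tested as well. Of 11 further genes of the ULK and lipid kinase complexes, 0 rose and 4 fell with edgeR, and with library totals 4 rose and 1 fell. All genes tested stood at 34.5% higher and 32.4% lower, or 47.4% and 23.6% with library totals. None of the 11 rose at an unadjusted p under 0.05 or with DESeq2, and 3 did with limma, which works on FPKM. Ulk2, a paralog of Ulk1, fell most, at 5.74 FPKM in IRI against 8.36 FPKM in sham and a log2 fold change of -0.79 ± 0.08 (SE, adjusted p = 6.55e-06), followed by Atg13 at -0.42 and Pik3r4 at -0.30. Atg101 and Uvrag, other subunits, were not called, at 0.24 ± 0.12 (SE, adjusted p = 0.111) and 0.19 ± 0.10 (SE, adjusted p = 0.122). Of 9 further genes of membrane supply and conjugation, 2 rose and 4 fell under both scalings. Wdr45b and Wdr45, a pair of paralogs related to the WIPI proteins, went opposite ways, at 0.64 ± 0.10 (SE, adjusted p = 9.57e-05) and -0.80 ± 0.12 (SE, adjusted p = 1.03e-04). Atg10, which joins ATG12 to ATG5, fell by 1.33 and Atg4c by 1.16 on the log2 scale, while Atg4a rose by 0.55.

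Genes of the machinery that trims ATG8 proteins and attaches them to the membrane went both ways, with 3 higher, 2 lower and 1 not called. With library totals 3 were higher and 1 lower. Among all genes tested 34.5% rose and 32.4% fell, or 47.4% and 23.6% with library totals. Atg7 (chr6:114620058-114837575), the activating enzyme, had 5.32, 5.58, 6.63, 5.86 and 6.67 FPKM in IRI replicates 1 to 5, against 3.74, 3.24, 3.27, 2.77 and 3.68 FPKM in sham replicates 1 to 5. Every IRI library lay above every sham library, and the log2 fold change was 0.59 ± 0.10 (SE, adjusted p = 1.88e-04). Atg3 (chr16:44979148-45008901), the conjugating enzyme that takes the ATG8 protein over from ATG7, had 18.3, 18.9, 16.6, 14.9 and 17 FPKM in IRI replicates 1 to 5, against 21.8, 22.2, 22.2, 19.6 and 21.2 FPKM in sham replicates 1 to 5. It went the other way without overlap, with a log2 fold change of -0.57 ± 0.09 (SE, adjusted p = 1.91e-04). In the complex that places ATG8 on the membrane, Atg16l1 rose with 5.03 FPKM in IRI against 2.82 FPKM in sham and a log2 fold change of 0.58 ± 0.11 (SE, adjusted p = 6.32e-04). Its partner Atg5 fell with 15.6 FPKM in IRI against 17.6 FPKM in sham and -0.43 ± 0.08 (SE, adjusted p = 3.85e-04), which was -0.17 and not called with library totals, and the other partner Atg12 was at -0.25 ± 0.11 (SE, adjusted p = 0.0688) and not called, though it was at -0.36 and called without IRI replicate 1. Atg4b, the protease that trims ATG8 proteins, rose by 0.27 ± 0.08 (SE, adjusted p = 0.00809) on the log2 scale. The opposite-strand gene Thap4 overlaps Atg4b, held counts equal to 110% of those of Atg4b and averaged 5.32 FPKM in IRI and 10.5 FPKM in sham, and its part in the value of Atg4b was not tested.

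Messages of the ATG8 proteins summed to less in IRI, and Gabarapl1 fell most among them. Of the 5 genes 0 rose and 3 fell with edgeR, against 34.5% and 32.4% of all genes tested. With library totals 1 rose and 2 fell, against 47.4% and 23.6% of all genes tested. None of the 5 rose at an unadjusted p under 0.05 or with DESeq2, while 1 did with limma. These ubiquitin-like proteins, of the LC3 and GABARAP subfamilies, coat the autophagosome and hold cargo receptors. Summed over the 5 genes, their level was 432 ± 21.5 FPKM in IRI and 666 ± 31.2 FPKM in sham, without overlap. Gabarapl1 (chr6:129510123-129519309) had 164, 139, 137, 132 and 126 FPKM in IRI replicates 1 to 5, against 364, 339, 356, 365 and 302 FPKM in sham replicates 1 to 5. All 5 IRI libraries were far below all 5 sham libraries, and the log2 fold change was -1.55 ± 0.12 (SE, adjusted p = 7.79e-07). Its share of the summed ATG8 FPKM was 30.5% to 37.8% in IRI libraries and 47% to 54.4% in sham libraries.

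Gabarap and Gabarapl2 fell less, at -0.53 ± 0.10 (SE, adjusted p = 4.11e-04) and -0.28 ± 0.07 (SE, adjusted p = 0.00383) on the log2 scale, and Gabarapl2 was -0.03 and not called with library totals. Within libraries the log2 ratio of Gabarapl1 to Gabarap was -0.20 ± 0.24 in IRI and 0.83 ± 0.17 in sham, a difference of -1.03 (adjusted exact permutation p = 0.0141). The log2 ratio of Gabarapl1 to Gabarapl2 differed by -1.28 (adjusted exact permutation p = 0.0141), so Gabarapl1 was lower relative to both of its relatives. Neither LC3 gene was called with all libraries and TMM factors, and their difference from the GABARAP genes was not tested. Map1lc3a (chr2:155118217-155119993) had 75.2, 104, 69.1, 75.5 and 70.2 FPKM in IRI replicates 1 to 5, against 68.6, 71.1, 68.5, 87.2 and 82.3 FPKM in sham replicates 1 to 5. IRI replicate 2 was the highest of all 10 libraries and the other IRI libraries lay within the sham range, and the log2 fold change of -0.19 ± 0.13 (SE, adjusted p = 0.201) did not pass and changed sign with library totals. Without IRI replicate 2 it was at -0.30 and called lower (adjusted p = 0.03). Map1lc3b (chr8:122317100-122325499), the LC3 most used as an autophagosome marker, had 21.6, 20.8, 17.2, 20.9 and 18.3 FPKM in IRI replicates 1 to 5, against 17.4, 16.1, 15.9, 16.9 and 15.1 FPKM in sham replicates 1 to 5. The groups overlapped only through IRI replicate 3, and the log2 fold change was 0.03 ± 0.10 (SE, adjusted p = 0.798) with TMM factors and 0.28 with adjusted p = 0.0137 with library totals. The log2 ratio of Map1lc3a to Map1lc3b was 1.98 ± 0.20 in IRI and 2.20 ± 0.19 in sham, a difference of -0.22 (adjusted exact permutation p = 0.136). Without IRI replicate 2 that ratio differed by -0.31 and passed, with an adjusted exact permutation p of 0.0317. The opposite-strand gene Zcchc14 overlaps Map1lc3b and held counts equal to 57.7% of its own.

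**Figure D2:**
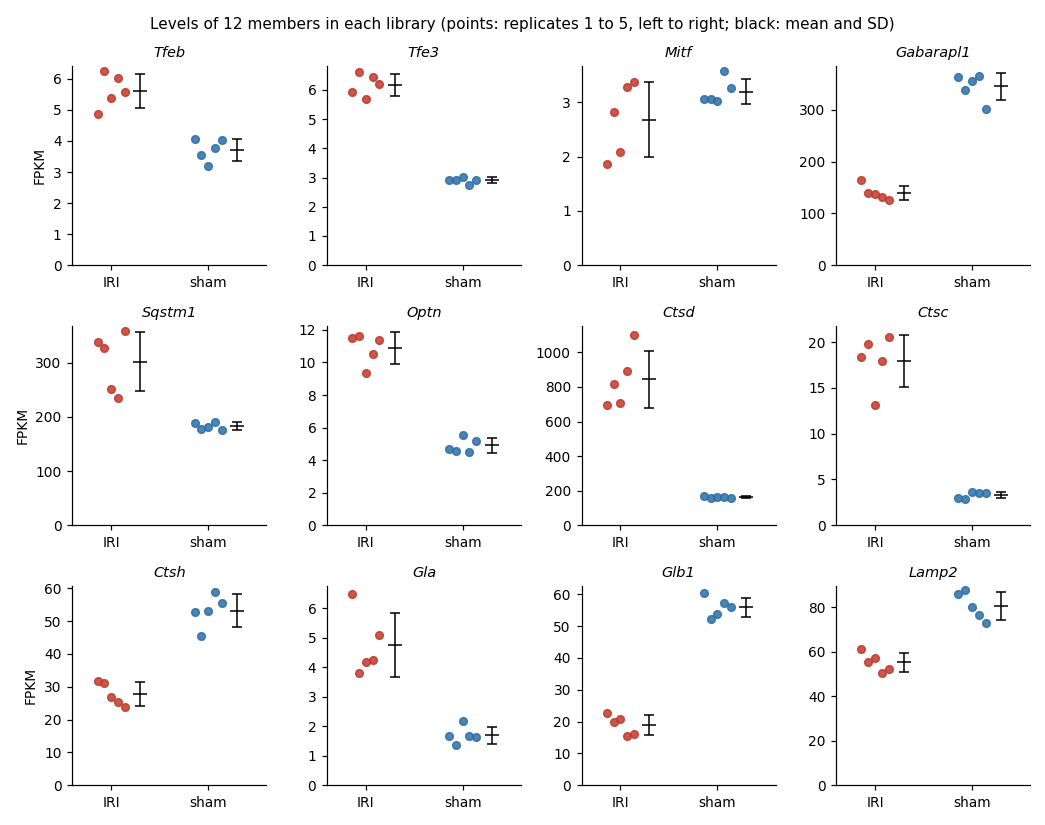
FPKM (vertical axes, from 0) of 12 of the 47 genes in each library, IRI in red on the left and sham in blue on the right, with points for replicates 1 to 5 and black marks for mean and SD. IRI and sham libraries do not overlap for 11 of these 12 genes, which were picked for display, and they overlap for Mitf. Over the 47 genes the groups do not overlap for 25, or 53.2%, against 55.2% of all genes tested.

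Cargo receptors tie ubiquitin-marked protein or organelles to ATG8, and of the 3 here Optn and Sqstm1 rose while Nbr1 fell, under both scalings. Optn (chr2:5025453-5068862), optineurin, had 11.5, 11.7, 9.35, 10.5 and 11.4 FPKM in IRI replicates 1 to 5, against 4.7, 4.57, 5.55, 4.52 and 5.15 FPKM in sham replicates 1 to 5. Every IRI library was above every sham library, and the log2 fold change was 0.90 ± 0.10 (SE, adjusted p = 8.16e-06). Sqstm1 (chr11:50090193-50101654), which encodes p62, had 338, 327, 252, 235 and 358 FPKM in IRI replicates 1 to 5, against 189, 177, 181, 191 and 175 FPKM in sham replicates 1 to 5. The IRI libraries fell into a higher set, replicates 1, 2 and 5, and a lower set, replicates 3 and 4, all of them above the sham libraries, and the log2 fold change was 0.48 ± 0.14 (SE, adjusted p = 0.0087). Nbr1 (chr11:101442975-101472777), which often acts in one complex with p62, had 23.6, 18, 24.7, 24 and 23.4 FPKM in IRI replicates 1 to 5, against 30.4, 32.5, 31.1, 26.9 and 26.4 FPKM in sham replicates 1 to 5. IRI replicate 2 was the lowest, no IRI library reached the sham range, and the log2 fold change was -0.63 ± 0.11 (SE, adjusted p = 3.66e-04). The log2 ratio of Sqstm1 to Nbr1 differed by 1.09 (adjusted exact permutation p = 0.0141) and that of Optn to Nbr1 by 1.51 (adjusted exact permutation p = 0.0141).

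Of 11 further cargo and organelle receptors, 1 rose and 9 fell with TMM factors, against 34.5% and 32.4% of all genes tested. With library totals 1 rose and 5 fell, against 47.4% and 23.6% of all genes, and limma called 4 lower. Bnip3, a receptor for mitochondria, was at 31.1 ± 1.92 FPKM in IRI and 56.7 ± 1.51 FPKM in sham with a log2 fold change of -1.11 ± 0.08 (SE, adjusted p = 3.58e-07). Its paralog Bnip3l fell by 0.57 on the log2 scale, and Sec62, a receptor for endoplasmic reticulum, by 0.95. Tollip, an adaptor that binds ubiquitin, rose, at 24.1 FPKM in IRI against 13.8 FPKM in sham and 0.55 ± 0.10 (SE, adjusted p = 3.68e-04). Wdfy3, a scaffold for protein aggregates, was not called at -0.17 ± 0.14 (SE, adjusted p = 0.295). Of 13 genes that fuse the autophagosome with the lysosome, 5 rose and 4 fell, or 6 and 3 with library totals. With TMM factors these are 38.5% and 30.8%, near the shares of all genes tested. Vps11 and Vps16, core subunits of the tethering complex, rose by 0.53 and 0.46 and Tecpr1 by 0.38, whereas Vps41, a subunit of the same tether, fell by 0.61. The SNARE genes Vamp8 and Snap29 fell by 0.63 and 0.59.

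Cathepsins, the lysosomal proteases, held the 2 largest rises of the 47 genes, those of Ctsc and Ctsd. Of 8 cathepsins 5 rose (Ctsc, Ctsd, Ctss, Ctsl, Ctsb), 2 fell (Ctsh, Ctsa) and Ctsz was not called, with the same counts under library totals. Among all genes tested 34.5% rose and 32.4% fell, or 47.4% and 23.6% with library totals. Ctsc (chr7:87927293-87960096), dipeptidyl peptidase I, which activates the granule proteases of neutrophils and other immune cells, had 18.4, 19.8, 13.2, 17.9 and 20.5 FPKM in IRI replicates 1 to 5, against 3, 2.87, 3.65, 3.57 and 3.47 FPKM in sham replicates 1 to 5. IRI libraries were far above sham libraries, with replicate 3 the lowest of them, and the log2 fold change was 2.19 ± 0.13 (SE, adjusted p = 1.04e-07). Ctsd (chr7:141929648-141941775), the main aspartic protease of lysosomes, is given in full because of its level, a choice made after its values were seen, and had 696, 819.9, 706, 892 and 1103 FPKM in IRI replicates 1 to 5, against 169.8, 155, 163, 164 and 160.2 FPKM in sham replicates 1 to 5. The 5 sham libraries lay close together, the IRI libraries were spread widely above them with replicate 5 the highest, and the log2 fold change was 2.12 ± 0.13 (SE, adjusted p = 1.14e-07). Ctsh (chr9:89936205-89958142), an aminopeptidase, had 31.8, 31.3, 26.8, 25.3 and 23.7 FPKM in IRI replicates 1 to 5, against 52.7, 45.3, 53.2, 58.9 and 55.6 FPKM in sham replicates 1 to 5. No IRI library reached the sham range, and the log2 fold change was -1.18 ± 0.13 (SE, adjusted p = 6.27e-06).

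Ctss, a cysteine protease known from antigen presenting cells, averaged 23 ± 5.47 FPKM in IRI and 8.66 ± 1.66 FPKM in sham, a log2 fold change of 1.15 ± 0.17 (SE, adjusted p = 8.59e-05). IRI replicate 1 had the lowest Ctss of the IRI libraries, 13.8 FPKM, the lowest sum of macrophage markers, 66.1 FPKM, and the highest sum of neutrophil markers, 110.4 FPKM. IRI replicate 3 had the highest Ctss, 26.8 FPKM, and the lowest neutrophil sum, 24.2 FPKM. The highest macrophage sum, 112 FPKM, was in IRI replicate 5, with Ctss at 25.85 FPKM. The part of macrophages and neutrophils in the levels of Ctss and Ctsc was not tested. Of the macrophage markers Cd14 rose, at 30.3 FPKM in IRI against 2.5 FPKM in sham, Csf1r fell, at 3.07 FPKM in IRI against 11.1 FPKM in sham, and C1qa was not called, at 16.7 FPKM in IRI against 13.6 FPKM in sham. Chil3 was at 6.89 FPKM in IRI against 0.10 FPKM in sham, and Itgam at 1.88 FPKM in IRI against 0.18 FPKM in sham. Ctsb and Ctsl, cysteine endopeptidases of broad use, rose by 0.42 ± 0.09 (SE, adjusted p = 0.00171) and 0.51 ± 0.13 (SE, adjusted p = 0.00418) on the log2 scale. The log2 ratio of Ctsl to Ctsb did not pass, at 0.08 (adjusted exact permutation p = 0.737), and neither did that of Ctss to Ctsl, at 0.63 (adjusted exact permutation p = 0.0879), although without IRI replicate 1 it differed by 0.87 and passed with an adjusted exact permutation p of 0.0231. Ctsa, a carboxypeptidase that also shields neuraminidase and beta-galactosidase in a joint complex, fell, at 32.1 ± 3.42 FPKM in IRI and 56.2 ± 4.51 FPKM in sham and -1.06 ± 0.11 (SE, adjusted p = 6.91e-06). Ctsz averaged 85.1 ± 19.7 FPKM in IRI and 91.3 ± 12.2 FPKM in sham, with a log2 fold change of -0.35 ± 0.15 (SE, adjusted p = 0.0595), which was -0.50 and called without IRI replicate 3 and -0.42 and called without sham replicate 3. With all libraries Ctsz was called lower at -0.37 with DESeq2 size factors (adjusted p = 0.0464) and with the DESeq2 test (adjusted p = 0.0379). The opposite-strand gene Nelfcd held counts equal to 30.5% of its own.

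Ctsd made up a larger share of the cathepsin message in IRI. The 8 genes summed to 1320 ± 148 FPKM in IRI and 553 ± 26.0 FPKM in sham. Ctsd made up 56.8% to 70.5% in IRI libraries and 28.1% to 31.4% in sham libraries of that sum, Ctsa 2.02% to 2.95% in IRI libraries and 9.4% to 10.6% in sham libraries, and Ctsh 1.51% to 2.69% in IRI libraries and 8.49% to 10.5% in sham libraries. In the log2 ratio to Ctsb, Ctsd stood at 2.49 ± 0.30 in IRI and 0.79 ± 0.05 in sham, a difference of 1.69 (adjusted exact permutation p = 0.0141). Among the 47 genes ordered by FPKM, Ctsd ranked 6 in every sham library and 1 in every IRI library. Psap, Lamp1 and Gabarapl1 held ranks 1, 2 and 3 in every sham library, while in IRI libraries Psap ranked 2, Lamp1 3 or 4, and Gabarapl1 6 to 8. The FPKM of all 47 genes summed to 3282 to 3648 in IRI and 3097 to 3405 in sham, so the ranges overlapped. Ctsd alone made up 19.4% to 30.3% in IRI libraries and 4.85% to 5.17% in sham libraries of that sum.

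**Figure D3:**
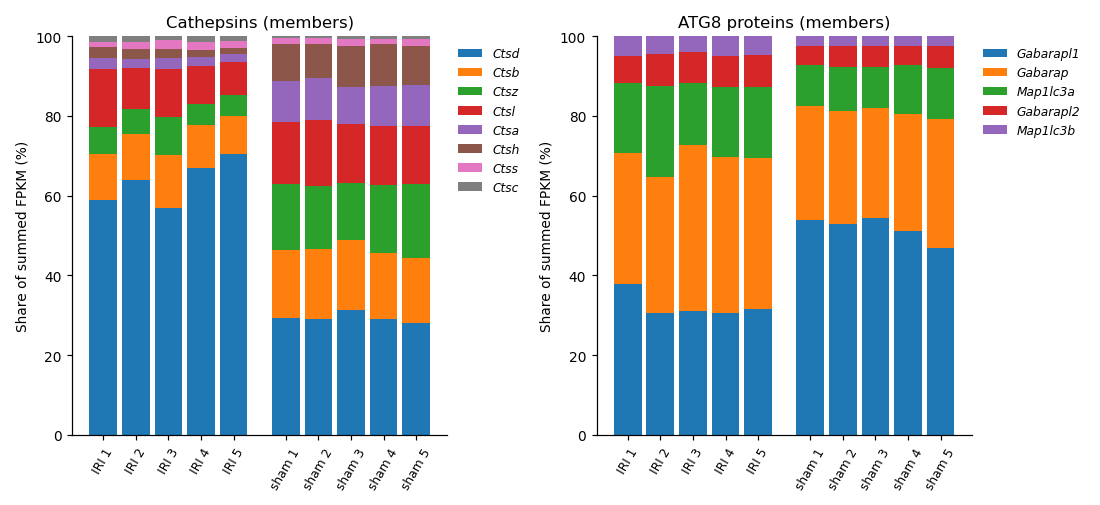
Share of summed FPKM (vertical axis, percent) taken by each of 8 cathepsins (left) and 5 ATG8 genes (right) in each library, IRI libraries left of sham libraries. The Ctsd segment takes 56.8% to 70.5% in IRI and 28.1% to 31.4% in sham, and the Gabarapl1 segment 30.5% to 37.8% in IRI and 47% to 54.4% in sham.

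The enzymes that take sugars and lipids apart went down, with Gla the exception. Of the 5 measured here 1 rose and 4 fell under both scalings, and the median of the 5 log2 fold changes was -0.84. Among all genes tested 34.5% rose and 32.4% fell, or 47.4% and 23.6% with library totals. Gla (chrX:133488898-133501874), alpha-galactosidase A, the enzyme lacking in Fabry disease, had 6.48, 3.8, 4.16, 4.24 and 5.09 FPKM in IRI replicates 1 to 5, against 1.65, 1.37, 2.16, 1.67 and 1.62 FPKM in sham replicates 1 to 5. The lowest IRI library was above the highest sham library, and the log2 fold change was 1.25 ± 0.19 (SE, adjusted p = 1.04e-04). Glb1 (chr9:114230144-114303966), beta-galactosidase, had 22.7, 19.8, 20.7, 15.5 and 16.2 FPKM in IRI replicates 1 to 5, against 60.3, 52.3, 53.9, 57.2 and 55.9 FPKM in sham replicates 1 to 5. IRI libraries were all below the sham range, and the log2 fold change was -1.80 ± 0.13 (SE, adjusted p = 5.36e-07). Neu1, neuraminidase, averaged 50.2 ± 12.1 FPKM in IRI and 107 ± 10.5 FPKM in sham and fell by 1.33 on the log2 scale (adjusted p = 3.70e-05). With Ctsa, all 3 enzymes of the complex that CTSA, GLB1 and NEU1 form were lower in IRI, without overlap between groups. Hexa, the alpha subunit of beta-hexosaminidase, fell to 17.2 FPKM in IRI, against 21.3 FPKM in sham, with a log2 fold change of -0.56 ± 0.11 (SE, adjusted p = 5.19e-04). Lipa, lysosomal acid lipase, varied most in IRI, from 11.4 to 23.8 FPKM against 17.2 to 29.8 FPKM in sham, with a log2 fold change of -0.84 ± 0.23 (SE, adjusted p = 0.00571).

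A further list of 33 lysosomal enzymes, hydrolases and the acetyltransferase Hgsnat, leaned the same way. Of these 3 rose, 23 fell and 7 were not called, the median was -0.82 on the log2 scale, and 5 rose and 20 fell with library totals. The calls with TMM factors amount to 9.09% and 69.7% of the 33, against 34.5% and 32.4% of all genes tested. With library totals 47.4% of all genes tested rose and 23.6% fell. Galns, a sulfatase of keratan sulfate breakdown, fell most, at 15.8 ± 3.5 FPKM in IRI and 55.1 ± 7.5 FPKM in sham and -2.04 ± 0.17 (SE, adjusted p = 9.74e-07). Acp5, tartrate-resistant acid phosphatase, had a log2 fold change of -1.79. The 3 that rose were Ctsk, a collagen-degrading cathepsin, at 0.93 ± 0.19 (SE, adjusted p = 7.99e-04), Hgsnat, an acetyltransferase of heparan sulfate breakdown, at 0.82 ± 0.10 (SE, adjusted p = 2.38e-05), and Arsa, arylsulfatase A, at 0.38 ± 0.12 (SE, adjusted p = 0.0147). Lgmn, the asparaginyl endopeptidase that processes cathepsins, averaged 289.7 ± 41.7 FPKM in IRI and 217 ± 30.0 FPKM in sham and was not called. Proximal tubule markers fell in the same libraries, by a median of -2.74 on the log2 scale over 9 genes, and their part in the lower hydrolases was not tested.

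**Figure D4:**
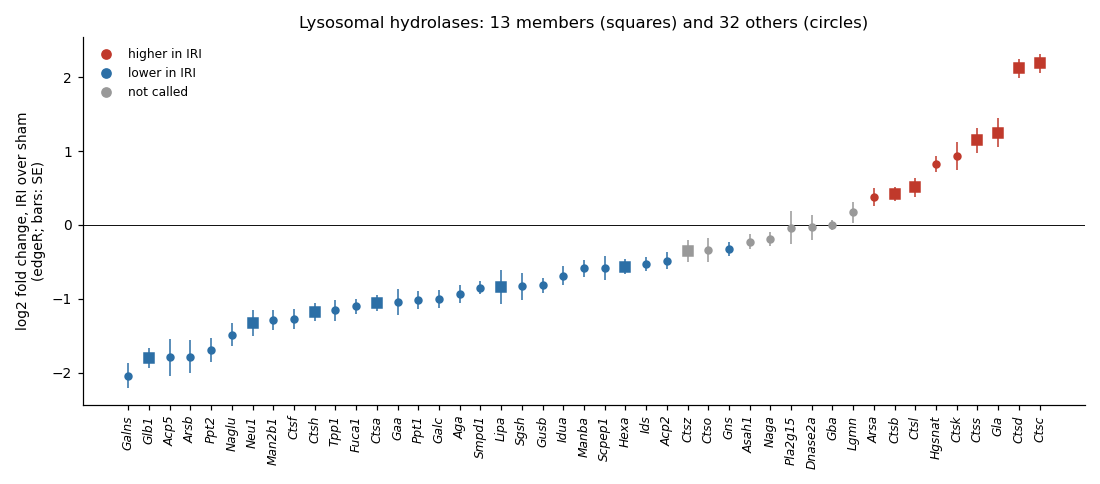
Log2 fold change of IRI over sham (vertical axis, edgeR with TMM factors, bars 1 SE) for 45 lysosomal enzymes, hydrolases and the acetyltransferase Hgsnat, in order of fold change, with squares for the 13 among the 47 genes and circles for 32 others. From Galns at -2.04 to Ctsc at 2.19, most points are blue and lower, and 9 are red and higher.

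Genes that sort and restrain these enzymes were called in few cases. Of 11 sorting genes and cathepsin inhibitors, 1 rose, 2 fell and 8 were not called, or 3 and 1 with library totals and 2 rises without sham replicate 3. The calls with TMM factors amount to 9.09% and 18.2% of the 11, against 34.5% and 32.4% of all genes tested. With library totals 47.4% of all genes tested rose and 23.6% fell. Cstb, cystatin B, a cytosolic inhibitor of cysteine cathepsins, rose, at 412 ± 98.4 FPKM in IRI and 96.3 ± 8.06 FPKM in sham and 1.84 ± 0.15 (SE, adjusted p = 7.84e-07). Gnptg, a subunit of the enzyme that adds the mannose phosphate sorting tag, fell by 0.93 and the receptor M6pr by 0.34 on the log2 scale. Cst3, the secreted inhibitor cystatin C, and Sort1, sortilin, were not called, at -0.06 ± 0.11 (SE, adjusted p = 0.65) and 0.23 ± 0.27 (SE, adjusted p = 0.472).

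In the lysosomal membrane and its lipid transport, Npc1 rose and Lamp1, Lamp2, Psap and Mcoln1 fell, while Npc2 and Grn were not called. Npc1, the membrane protein that exports cholesterol, had 4.18, 4.69, 2.99, 3.5 and 4.26 FPKM in IRI replicates 1 to 5, against 1.84, 2.02, 2.26, 1.79 and 1.79 FPKM in sham replicates 1 to 5. Every IRI library was above every sham library, and the log2 fold change was 0.77 ± 0.13 (SE, adjusted p = 2.47e-04). The opposite-strand gene Rmc1 overlaps Npc1, held counts equal to 68.0% of its own and averaged 4.34 FPKM in IRI and 2.92 FPKM in sham, and its part in the rise of Npc1 was not tested. Lamp2 (chrX:37490234-37545331), a main coat protein of the lysosome that also serves in fusion, had 61.3, 55.2, 57, 50.7 and 52.3 FPKM in IRI replicates 1 to 5, against 85.9, 87.7, 80.0, 76.8 and 73 FPKM in sham replicates 1 to 5. No IRI library reached the sham range, and the log2 fold change was -0.79 ± 0.11 (SE, adjusted p = 6.65e-05). Lamp1, its paralog, averaged 313 ± 41.1 FPKM in IRI and 452 ± 28.7 FPKM in sham, with a log2 fold change of -0.78 ± 0.12 (SE, adjusted p = 9.40e-05), and the log2 ratio of Lamp2 to Lamp1 differed by -0.01 (adjusted exact permutation p = 0.937).

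Npc2, the soluble partner that hands cholesterol to NPC1, averaged 26.8 ± 3.17 FPKM in IRI and 24.3 ± 1.96 FPKM in sham and was not called, and the log2 ratio of Npc2 to Npc1 differed by -0.83 (adjusted exact permutation p = 0.0231). Psap, the precursor of the saposins that activate sphingolipid hydrolases, averaged 426 ± 83.4 FPKM in IRI and 589 ± 58.4 FPKM in sham, with a log2 fold change of -0.72 ± 0.14 (SE, adjusted p = 7.27e-04). IRI replicate 3, at 559 FPKM, was the only IRI library within the sham range of Psap. Grn, progranulin, averaged 62.5 ± 16.8 FPKM in IRI and 40.9 ± 3.57 FPKM in sham, with a log2 fold change of 0.35 ± 0.15 (SE, adjusted p = 0.0586) under TMM factors and 0.61 with adjusted p = 0.00515 with library totals, and without IRI replicate 1 it was at 0.46 and called higher. Mcoln1, a calcium channel of the lysosome, averaged 7.67 ± 0.761 FPKM in IRI and 7.68 ± 0.304 FPKM in sham, and its log2 fold change of -0.26 ± 0.08 (SE, adjusted p = 0.013) passed with TMM factors, against -0.0019 with adjusted p = 0.985 with library totals, which did not. It was also not called in the fit with TMM factors and no filter on low values, at -0.23 (adjusted p = 0.0738). Among 17 further lysosomal membrane proteins 15 were tested, of which 2 rose and 5 fell, or 5 and 3 with library totals. For all genes tested the shares were 34.5% and 32.4%, or 47.4% and 23.6% with library totals. Scarb2, the receptor that carries glucocerebrosidase to lysosomes, and Tpcn2, a cation channel, rose by 1.21 and 1.25. Mcoln3, a relative of Mcoln1, was at -1.76 ± 0.22 (SE, adjusted p = 2.56e-05), Tmem175, a potassium and proton channel, at -1.41 ± 0.16 (SE, adjusted p = 8.44e-06), and Slc17a5, the sialic acid exporter, at -0.92 ± 0.12 (SE, adjusted p = 4.03e-05). Cd63 and Laptm4a, abundant membrane proteins, were not called at -0.03 ± 0.13 (SE, adjusted p = 0.859) and -0.01 ± 0.09 (SE, adjusted p = 0.964).

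V-ATPase, the proton pump that acidifies the lysosome, had 0 of the 5 subunits here higher and 2 lower, or 0 and 1 with library totals, under which Atp6v0d1 was not called. All genes tested stood at 34.5% higher and 32.4% lower, or 47.4% and 23.6% with library totals. None of the 5 rose with limma or DESeq2 or at an unadjusted p under 0.05 with edgeR. Atp6v1a (chr16:43905765-43960068), the catalytic subunit, had 49.4, 41.5, 68, 53.8 and 67 FPKM in IRI replicates 1 to 5, against 89.3, 90.8, 88.2, 78 and 67.2 FPKM in sham replicates 1 to 5. The groups overlapped through sham replicate 5, which lay just below IRI replicate 3, and the log2 fold change was -0.82 ± 0.15 (SE, adjusted p = 3.37e-04). Atp6v0d1, which links the membrane ring to the stalk, averaged 53.3 ± 4.55 FPKM in IRI and 61.2 ± 3.89 FPKM in sham, with a log2 fold change of -0.45 ± 0.09 (SE, adjusted p = 7.95e-04). Atp6v0c, Atp6v1b2 and Atp6v1h were not called, at -0.15 ± 0.11 (SE, adjusted p = 0.244), -0.26 ± 0.16 (SE, adjusted p = 0.162) and -0.09 ± 0.08 (SE, adjusted p = 0.383), and Atp6v0c and Atp6v1h changed sign with library totals. Atp6v0c was at -0.24 and called lower without IRI replicate 1. Slc18a1 on the opposite strand held counts equal to 40.4% of those of Atp6v1b2, and the copy Atp6v0c-ps2 was listed at 4.04 FPKM in IRI and 4.17 FPKM in sham.

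Further subunits moved in both directions. Of 18 further subunits and accessory genes, 4 rose and 8 fell, or 6 and 4 with library totals. For all genes tested the shares were 34.5% and 32.4%, or 47.4% and 23.6% with library totals. Atp6v0a1 rose by 0.84, Atp6v1g3 by 0.72 and Atp6v0d2 by 0.65 on the log2 scale, and the log2 ratio of Atp6v0d2 to its paralog Atp6v0d1 differed by 1.10 (adjusted exact permutation p = 0.0141). Atp6v0e2 was at -1.41 ± 0.14 (SE, adjusted p = 3.59e-06), Atp6v1e1 at -0.57 ± 0.09 (SE, adjusted p = 8.71e-05) and Atp6v1b1, the B subunit of intercalated cells, at -1.24 ± 0.33 (SE, adjusted p = 0.0051). Atp6v1b1 spread from 4.20 to 22.9 FPKM in IRI and from 21.5 to 30.7 FPKM in sham, and its log2 ratio to Atp6v1b2 differed by -1.14 (adjusted exact permutation p = 0.0423), and that call was lost, with adjusted exact permutation p of 0.0529 to 0.0635 and differences of -1.15 to -1.12, without sham replicate 1, 2, 4 or 5. Without IRI replicate 1, the lowest in Atp6v1b1, the difference was -0.73. Intercalated cell markers summed to 75.7 to 123 FPKM in IRI and 119 to 135 FPKM in sham, with 1 higher, 4 lower and 2 not called of 7, or 2 higher and 4 lower with library totals. Their part in the subunit values was not tested.

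With TMM factors 8 of the 13 lysosomal enzymes and 1 of the 19 autophagy genes changed by at least 2-fold. Of all genes tested, 11.9% were higher and 15% lower by that much. The difference between the counts of 8 and 1 was not tested. With library totals the enzymes Ctsa and Ctsh fell by less than 2-fold, at -0.81 and -0.94 on the log2 scale. The autophagy gene Optn passed 2-fold under that scaling, at 1.15. Of the 19 autophagy genes 6 rose, 7 fell and 6 were not called, the median was -0.12 on the log2 scale, and 7 rose and 5 fell with library totals. The calls with TMM factors amount to 31.6% and 36.8% of the 19, near the 34.5% and 32.4% of all genes tested. With library totals 47.4% of all genes tested rose and 23.6% fell. Of the 13 lysosomal enzymes 6 rose, 6 fell and 1 was not called under both scalings, with a median of -0.35. The mean log2(CPM + 1) of the 19 minus that of the 13 was -0.61 ± 0.13 in IRI and -0.51 ± 0.07 in sham, and the ranges overlapped, at -0.84 to -0.51 in IRI and -0.59 to -0.41 in sham. The difference between groups was -0.10, and it was 0.59 when medians over the genes replaced means, and -0.05 without IRI replicate 3. Over the 13 enzymes that mean was 7.00 ± 0.14 in IRI and 6.99 ± 0.04 in sham. For the autophagy genes it was 6.39 ± 0.10 in IRI and 6.48 ± 0.05 in sham. The 12 other lysosomal genes had 1 higher, 6 lower and 5 not called, or 2 and 4 with library totals.

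**Figure D5:**
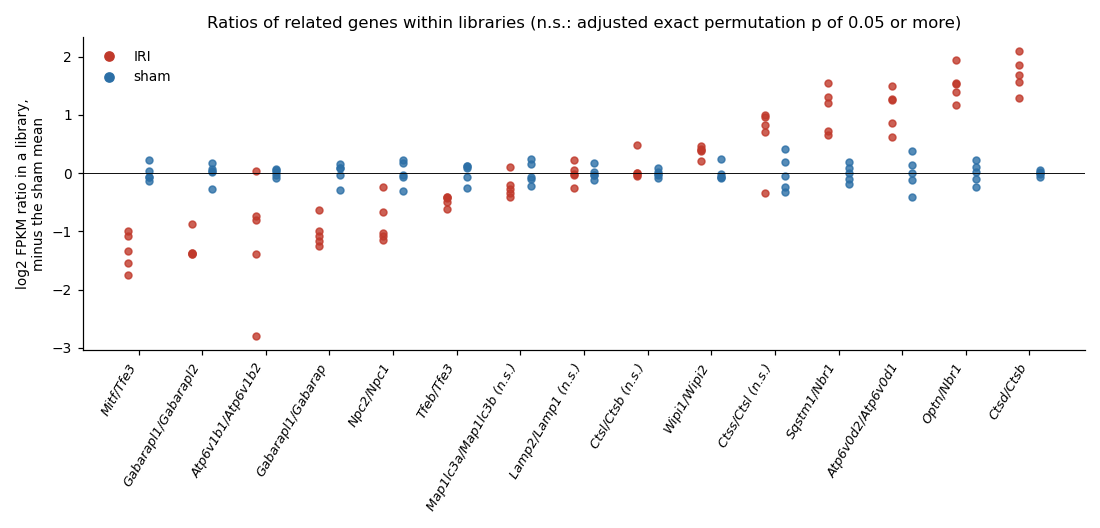
Log2 FPKM ratio of 15 pairs of related genes in each library, less the sham mean (vertical axis), IRI in red left of sham in blue, ordered by the difference of group means. Ratios marked n.s. did not pass the exact permutation test after adjustment over 16 pairs. Ctsd/Ctsb lies highest at 1.69 and Mitf/Tfe3 lowest at -1.34.

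Of the 15 ratios within libraries given here, 11 passed the exact test after adjustment and 4 did not. For 8 of the 11 the raw p was the smallest possible, 0.00794, with the 5 IRI libraries all on one side of the 5 sham libraries. Over 142 tested genes of the further pathway lists together, 24 rose, 68 fell and 50 were not called, the median was -0.22 on the log2 scale, and 39 rose and 47 fell with library totals, against 34.5% and 32.4% of all genes with TMM factors.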

How the data were processed

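Poly(A) RNA of whole kidney was sequenced as paired reads of 150 bases from libraries made with 1 µg of total RNA, per the labels' protocols. The authors deposited 1 table of whole-number counts and FPKM per gene for 10 libraries. The submitters' processing notes name cutadapt 1.9.1, HISAT2 2.0.1, HTSeq 0.6.1 and build GRCm39, while their settings and whether counting used strand are not given in the sources used here. The deposited FPKM could be rebuilt from counts, exonic lengths and library totals for 100% of values, to 0.005 units or 0.1%.

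The filter kept 13324 genes that reached 1 FPKM in 5 libraries or more, and these were tested on the deposited counts with edgeR 4.0.16 (R 4.3.3), using quasi-likelihood tests, TMM factors (mean 1.09 in IRI and 0.917 in sham) and Benjamini-Hochberg adjustment, with calls under 0.05. The SE is the log2 fold change over the square root of F. FPKM is scaled by library totals, so its ratios differ from the fold changes. Ratios of 16 gene pairs used an exact two-sided permutation test over 252 assignments, with 0.1 FPKM added. One of the pairs and 1 further hydrolase, which stay in the adjustment and the list counts, are not reported here. Values after ± are SD over 5 libraries unless marked SE. Alternatives were DESeq2 1.42.0, limma 3.58.1 on log2 values of the deposited FPKM plus 1 or 0.1, library totals as scaling, other filters, a replicate block and leaving out each library. The fits were tested on simulated data. Symbols were matched by identifier (52083 of 55359 genes). Promoter sequences are RefSeq's for GRCm38.p6.

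The 47 genes, the 145 genes of the further lists and the marker lists were chosen with earlier results of these data known. Per-library values are given for the factors, Sqstm1, Map1lc3a, Map1lc3b and, in each role, the called genes with the largest rise and the largest fall. Of the further lists, up to 3 called genes per direction and up to 2 uncalled genes are named.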

Additional observations from a re-analysis of the deposited data

Results flagged for a closer look

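In groups of 5 libraries, 1 library stood further from the rest than Dixon's 95% limit (0.71 of the range) in 11 of 130 groups checked, and chance alone gives about 1 in 20.

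Of the 11, 4 were values of IRI replicate 2 or 3. In IRI replicate 2, Map1lc3a was highest at 104 FPKM, Atg16l1 was highest at 6.30 FPKM and Nbr1 was lowest at 18.0 FPKM. In IRI replicate 3, Ctsz was highest at 119 FPKM. A further 3 were ratios in IRI replicate 1, where the log2 ratio of Gabarapl1 to Gabarapl2 was highest at 2.46, that of Ctsl to Ctsb was highest at 0.33 and that of Ctss to Ctsl was lowest at -3.62. The remaining 4 were in sham replicate 3, with Wipi1 highest at 8.82 FPKM, Atg5 highest at 19.4 FPKM, the log2 ratio of Wipi1 to Wipi2 highest at -0.50 and Neu1 lowest at 88.5 FPKM.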

How the results depend on the processing

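Of the 47 genes, 31 kept their direction and their call under every alternative tried, and none of the 35 called genes lost its call when 1 library was left out. Depth set no limit on whether these genes could be tested, since every one had at least 72 counts per library. The counts of called genes among the 47 ran from 15 to 17 higher and from 15 to 21 lower over the alternatives that used all libraries, and over all genes tested from 4424 to 4789 higher and from 4114 to 4504 lower when each library was left out in turn. DESeq2 called 15 of the 47 higher and 21 lower.

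Scaling moved uncalled genes across 0. With library totals, limma with 1 FPKM added and limma with 0.1 FPKM added, the log2 fold changes were 0.13, 0.12 and 0.13 for Wipi1, 0.059, 0.050 and 0.050 for Map1lc3a, 0.14, 0.13 and 0.14 for Npc2, 0.096, 0.093 and 0.095 for Atp6v0c, and 0.17, 0.16 and 0.17 for Atp6v1h, none of them called. Ulk1 was at -0.00039 with DESeq2 size factors, -0.00035 with the DESeq2 test and -0.0062 with the replicate block, and ranged from -0.14 to 0.10 when each library was left out. Atg9a was at -0.018 with both DESeq2 settings and ranged from -0.14 to 0.11. Map1lc3b ranged from -0.037 to 0.082. The other lysosomal genes called higher were 2, with Grn the second, under library totals, limma with either addition and edgeR's own filter, and 1 to 2 when each library was left out. The further lists together had 39 higher with library totals, 38 higher and 45 lower with limma under either addition, and the further list of lysosomal enzymes 5 higher under all 3. These counts of the further lists under each alternative were added after the data had been seen. The autophagy score minus the enzyme score was 0.59 with medians over genes, and -0.13 to -0.05 when each library was left out, and the cause was not tested.

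When each library was left out, the log2 ratio differences ran from -0.31 to -0.16 for Map1lc3a/Map1lc3b, from -0.062 to 0.058 for Lamp2/Lamp1, from -0.02 to 0.11 for Ctsl/Ctsb, from 0.54 to 0.87 for Ctss/Ctsl and from -1.43 to -0.73 for Atp6v1b1/Atp6v1b2.

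Libraries of the 2 groups share only a replicate number. Deviations from the group means of same-numbered libraries correlated at -0.23 to 0.05, and 0 of 5 libraries correlated best with its own number. With the number as a replicate block, 15 of the 47 were called higher and 21 lower, the added one being Atg12 at -0.26 (edgeR adjusted p = 0.0467), and 4221 and 4097 of all genes tested. The sign-flip form of the ratio test with this block cannot go below 0.0625, so no ratio could pass. The differences are then the same, at -0.47 for Tfeb/Tfe3, -1.34 for Mitf/Tfe3, -1.03 for Gabarapl1/Gabarap, -1.28 for Gabarapl1/Gabarapl2, 0.37 for Wipi1/Wipi2, 1.09 for Sqstm1/Nbr1, 1.51 for Optn/Nbr1, 1.69 for Ctsd/Ctsb, -1.14 for Atp6v1b1/Atp6v1b2 and 1.10 for Atp6v0d2/Atp6v0d1 with an adjusted exact p of 0.0909 each, and -0.83 for Npc2/Npc1 with 0.154.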

Other observations

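The 47 genes varied more between IRI libraries than between sham libraries. The coefficient of variation of FPKM was larger in IRI for 41 of the 47, with a median of 12.5% in IRI and 8.03% in sham. Whether all genes tested varied more between IRI libraries in the same way was not tested. Lipa varied most in IRI, at 33.6%. IRI replicate 3 held the highest IRI value for 15 of the 25 lysosomal genes, among them Psap, Lamp1, Grn, Ctsb and Lipa. IRI replicate 1 was lowest for 15 of the 47 genes.

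Genes of the further lists that missed the filter on low values were read from a fit without it. Gpnmb, a lysosomal glycoprotein known from loaded macrophages, was at 0.60 to 1.37 FPKM in IRI and 0.02 to 0.15 FPKM in sham, with a log2 fold change of 3.75 ± 0.42 (SE, edgeR adjusted p = 5.00e-07). Mcoln2, a relative of the channel gene Mcoln1, was at 0.09 to 0.21 FPKM in IRI and 0.20 to 0.86 FPKM in sham. Rragb was not called in that fit, at 0.98 FPKM in IRI and 0.77 FPKM in sham on average.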
